A study of Homo sapiens with 2 samples.

Results

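The BCL2 family regulates apoptosis through the mitochondrial outer membrane. The 10 family genes described here were taken by symbol from the 58174 genes listed for a pair of RNA-seq libraries of human hepatocellular carcinoma (HCC) cells. They comprised 4 anti-apoptotic genes (BCL2, BCL2L1, BCL2L2 and MCL1), 1 effector (BAK1) and 5 BH3-only genes (BID, BAD, BIK, BCL2L11 and BMF). PLC-8024-CTR cells carried the control vector, and PLC-8024-GDF1 cells overexpressed GDF1, a secreted ligand of the TGF-β superfamily, from a stably introduced construct under puromycin selection. Both were made from PLC-8024, an HCC cell line, and 1 library was sequenced for each, called the control and the GDF1 library from here on. The deposited values are headed as mean TPM, and whether sequencing runs were averaged is not given in the sources used here. Whether the GDF1 cells were a single clone or a pool is not given in the sources used here, and no time point was labelled. The comparison addressed how transcripts of the family differ between HCC cells with and without introduced GDF1.

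Anti-apoptotic members hold the effectors and the BH3-only proteins in a surface groove and so keep the mitochondrial outer membrane intact. When they are occupied, BAK and its relative BAX form oligomers that permeabilise the membrane, cytochrome c leaves the mitochondria and caspases are activated. BH3-only proteins carry the death signal, either by binding the effectors directly (BIM, encoded by BCL2L11, and the cleaved form of BID) or mainly by occupying the anti-apoptotic groove (BAD, BIK and BMF). In the liver the balance is well known for its dependence on BCL-XL and MCL-1, since hepatocytes that lack either die by apoptosis in mouse models.

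All 10 genes share the BH3 motif, and it is shown here. In the BH3-only proteins and the effectors it is the short helix that sits in the groove of the anti-apoptotic members. The reference coding sequence of each gene was read from GENCODE on GRCh37 and searched for 6 codons in the order leucine or methionine, then arginine, alanine or glutamine, then any residue, then alanine, valine, isoleucine or methionine, then glycine, serine or alanine, then aspartate. The pattern was written to cover the motifs known for the family, and methionine was allowed as the first residue after BCL2L2 had given no match without it. By this construction each member held 1 match, against 2.48% of 20241 coding sequences with at least 1. The 42 bases below run 5′ to 3′ on the coding strand, with the 6 matched codons in capitals.
BCL2 (chr18:60985582-60985623, minus strand, exon 2): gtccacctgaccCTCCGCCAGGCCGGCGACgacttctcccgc
BCL2L1 (chr20:30309725-30309766, minus strand, exon 2): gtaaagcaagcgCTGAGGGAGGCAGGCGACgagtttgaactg
BCL2L2 (chr14:23777100-23777141, plus strand, exon 3): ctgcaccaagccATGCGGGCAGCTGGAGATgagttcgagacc
MCL1 (chr1:150551341-150551382, minus strand, exon 1): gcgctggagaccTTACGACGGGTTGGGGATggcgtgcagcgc
BAK1 (chr6:33543164-33543205, minus strand, exon 4): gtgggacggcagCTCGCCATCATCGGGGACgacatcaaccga
BID (chr22:18222181-18222222, minus strand, exon 4): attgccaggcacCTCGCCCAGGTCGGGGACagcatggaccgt
BAD (chr11:64039094-64039135, minus strand, exon 3): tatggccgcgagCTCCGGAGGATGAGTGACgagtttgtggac
BIK (chr22:43523710-43523751, plus strand, exon 3): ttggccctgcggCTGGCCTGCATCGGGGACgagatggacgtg
BCL2L11 (chr2:111907668-111907709, plus strand, exon 3): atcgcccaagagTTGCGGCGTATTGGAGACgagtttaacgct
BMF (chr15:40396396-40396437, minus strand, exon 4): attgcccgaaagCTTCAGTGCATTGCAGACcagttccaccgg
The motif ended in the aspartate codon GAC in 8 members and in GAT in MCL1 and BCL2L2. The first codon was methionine (ATG) in BCL2L2 and leucine in the other members. Over the 18 capital bases, BAK1 and BIK were the pair with the most identical positions (15), and BAK1 and BID, as well as BCL2 and BID, shared 14.

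Expression was given as TPM, an abundance of transcripts corrected for the length of the gene and for the size of the library, so that levels can be set side by side between genes. Read depth cannot be recovered from such values. A change is log2((TPM + 1)/(TPM + 1)) with the GDF1 library above and the control library below, a scale that shrinks the change of genes with low TPM. A change past 2-fold on this scale was called. As each condition had a single library, the differences were not tested, and the spread between cultures is unknown. Genes that reached 1 TPM in at least 1 library are called expressed. There were 14929 of them, and 14.4% were past 2-fold, with 4.82% higher and 9.61% lower in the GDF1 library. Their median change was -0.20, so a value of -0.20 is where a typical gene lay. As a check of the labels, GDF1 was listed at 2.10 and 4.64 TPM, and CERS1, whose annotated exons cover 100% of the exonic bases of GDF1, at 13.3 TPM in the control and 9612 TPM in the GDF1 library. All 8 hepatocyte and HCC markers examined reached 1 TPM, with a summed level of 8089 TPM in the control and 4684 TPM in the GDF1 library, most of it SERPINA1 (5308 and 2915 TPM). Of the 8, 5 were lower past 2-fold (APOA1, AFP, ALB, TTR and HNF4A), beside 9.61% of all genes. The 8 changes had a median of -1.10, and the lowest was -2.61 for TTR, at 7.17 and 0.34 TPM. The part of this shift in the members' values was not tested. Of 8 markers of leukocytes, endothelium and stroma, 6 stayed under 1 TPM in both libraries, PTPRC, VWF, COL1A2 and ACTA2 among them at 0.0001 TPM, and the others were CD68 (33.1 and 13.2 TPM) and PECAM1 (23.2 and 22.2 TPM).

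Of the 10 members, 9 reached 1 TPM in at least 1 library and 7 did so in both. BCL2L2 was past 2-fold with a lower value in the GDF1 library, BIK was past 2-fold with a higher value, and the other 7 stayed within 2-fold. This is 2 of 9 members against 14.4% of all genes, and 1 of 9 in each direction against 4.82% and 9.61%, so nothing is called particular to the family from these counts. The median change was -0.10 over the 10 members and -0.20 over the 9, beside -0.20 over all genes. By role, the 3 expressed anti-apoptotic members and BAK1 had log2 changes below 0, where 63.25% of all genes lay. Of these members, BCL2L1 turned to 0.03 with rescaled TPM. BCL2L2 was at -1.45 with its readthrough gene added. With PABPN1 added as well the change was 0.02, but that sum was mostly PABPN1. Of the 5 BH3-only members, 4 had values above 0, where 36.8% of all genes lay. BCL2L11 among them reached 1 TPM only in the GDF1 library, and BCL2L2 reached it only in the control. The direction of each was thus fixed by how it passed the limit. The expressed BH3-only genes outside the members, PMAIP1, BBC3 and HRK, were all below 0, at -0.82, -0.18 and -0.28.

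**Figure D1:**
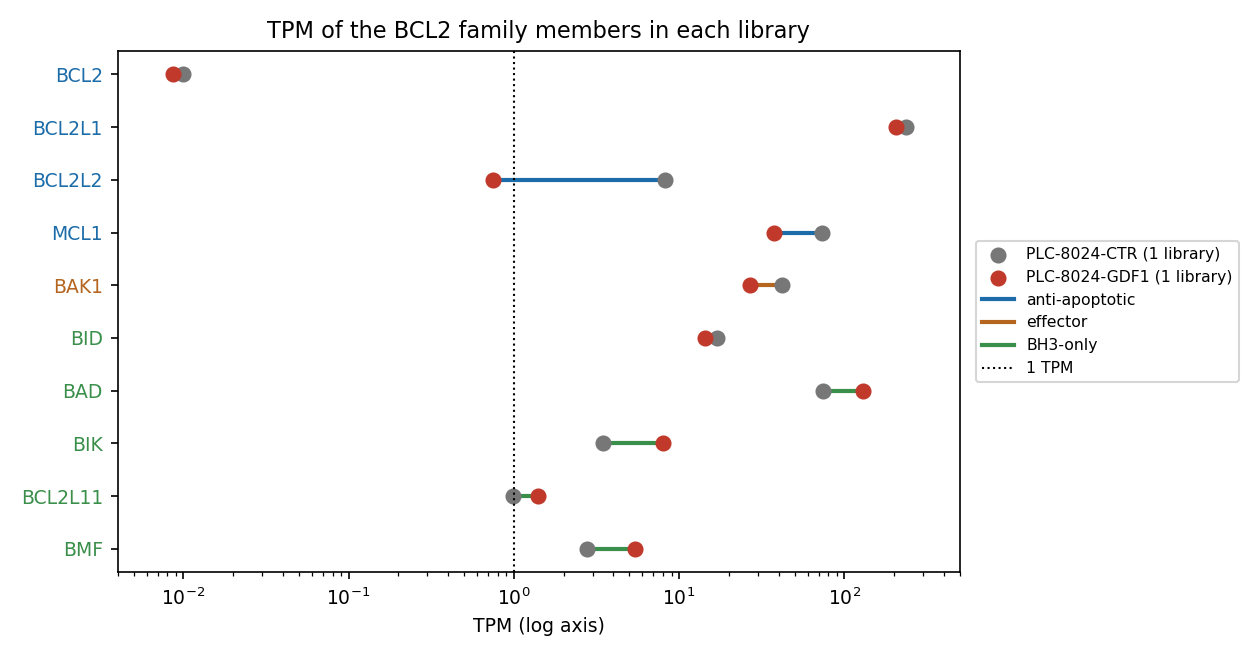
TPM of each member on a log axis, with a grey point for the PLC-8024-CTR library and a red point for the PLC-8024-GDF1 library joined by a line coloured by role; the dotted line marks 1 TPM. BCL2L2 spans the widest distance, from 8.23 to 0.74 TPM, BCL2 lies near 0.01 TPM in both, and BAD, BIK, BCL2L11 and BMF have the red point on the right.

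BCL2L1 encodes BCL-XL, the main anti-apoptotic protein of hepatocytes along with MCL-1. It was the most abundant member in both libraries, with 235.6 TPM in the control and 204.4 TPM in the GDF1 library. Only 4.17% of the genes expressed in the control library were listed as high or higher. Its change of -0.20 lay at the median of all genes, since 49.7% of them had a lower value. Genes with a mean over 100 TPM, as BCL2L1 has, had a median change of 0.03 (quartiles -0.29 and 0.35). Its span on GRCh37 runs from 30252255 to 30311792 of chromosome 20, on the minus strand. The long noncoding RNA ABALON covers 41.3% of its exonic bases from the opposite strand, but ABALON was listed at only 3.81 and 1.47 TPM. The gene-level value does not separate the long, protective form of BCL-X from its short, pro-apoptotic splice form.

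MCL1, whose protein is short-lived and protects hepatocytes and many tumour cells, was listed at 72.9 TPM in the control and 37.3 TPM in the GDF1 library. Its log2 change of -0.95 lay just inside 2-fold and was -0.75 relative to the median of all genes. A lower change was found in 10.9% of all genes. Its longest transcript has a GC content of 44.7%, in the second lowest of 5 equal groups of protein-coding genes by GC content, whose median change was -0.41. After subtraction of the GC trend its change was -0.65. MCL1 (chromosome 1, 150533371 to 150552214, minus strand) shares 43 bases with ADAMTSL4 on the opposite strand, which was listed at 45.2 and 104.9 TPM.

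BCL2L2 encodes BCL-W, an anti-apoptotic relative of BCL-XL. It was listed at 8.23 TPM in the control and 0.74 TPM in the GDF1 library, an 11.1-fold lower TPM and a log2 change of -2.41. A lower change was found in 0.71% of all genes, and 10% of the genes with a mean of 1 to 5 TPM were lower past 2-fold. It reached 1 TPM only in the control library. The gene (chromosome 14, 23767999 to 23780960, plus strand) runs into PABPN1, which encodes a poly(A)-binding protein, through the annotated readthrough gene BCL2L2-PABPN1, and 16.8% of its exonic bases are also exonic in the readthrough gene. BCL2L2-PABPN1 was listed at 3.53 and 2.94 TPM, and PABPN1 at 57.4 and 66.7 TPM. Adding the readthrough gene to BCL2L2 gave 11.8 and 3.68 TPM and a change of -1.45. Adding PABPN1 as well gave 69.2 and 70.4 TPM and a change of 0.02. Most of that sum is PABPN1, so its change says little about BCL2L2. PPP1R3E, which encodes a regulatory subunit of protein phosphatase 1, shares 6.51% of the exonic bases of BCL2L2 from the opposite strand and was listed at 9.38 and 14.8 TPM. How reads were shared out between these genes was not tested, so the value of BCL2L2 alone is uncertain.

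BCL2, the founding member of the family, was close to absent. It was listed at 0.0099 TPM in the control and 0.0087 TPM in the GDF1 library, and no fold is given for values this low. The levels of the anti-apoptotic genes thus ran in the order BCL2L1, MCL1, BCL2L2 and BCL2 in both libraries.

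BAK1 encodes the effector BAK, which resides in the mitochondrial outer membrane. Its level was 41.8 TPM in the control and 26.8 TPM in the GDF1 library, a change of -0.63 on the log2 scale and of -0.43 relative to the median of all genes. A lower change was found in 23.2% of all genes. Its processed pseudogenes could share reads with it, and BAK1P1 was listed at 1.79 and 0.37 TPM and BAK1P2 at 0.0001 TPM in both. The related effector BAX was listed at 158.6 and 161.3 TPM, a change of 0.02, so the ratio of BAK1 to BAX was 0.26 in the control and 0.17 in the GDF1 library.

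BAD, which binds BCL-XL when it is not phosphorylated and held by 14-3-3 proteins, was the most abundant BH3-only member. Its level was 74.5 TPM in the control and 129.7 TPM in the GDF1 library, a change of 0.79 on the log2 scale and of 0.99 relative to the median of all genes. Only 7.56% of all genes had a change as high or higher. BAD has the highest GC content among the 10 members (66.3%), in the group of highest GC content, whose median change was 0.11 and of which 8.31% were higher past 2-fold. After subtraction of the GC trend its change was 0.57. GPR137 runs over almost the whole gene from the opposite strand and shares 23.7% of the exonic bases of BAD. GPR137 was listed at 47.2 and 43.5 TPM, and whether reads were counted by strand is not given in the sources used here.

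BIK, a BH3-only protein found mainly at the endoplasmic reticulum, was the only member higher past 2-fold. It was listed at 3.44 TPM in the control and 8.02 TPM in the GDF1 library, a change of 1.02, or 2.33-fold as a plain TPM ratio. A change as high or higher was found in 4.6% of all genes, and 4.9% of genes with a mean of 5 to 20 TPM were higher past 2-fold. BIK stood just outside the 2-fold limit. The nearest members inside it were MCL1 at -0.95 on the other side and BAD at 0.79 and BMF at 0.77 on the same side. No listed gene overlaps BIK (chromosome 22, 43506756 to 43525718, plus strand).

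BMF, which is held at the cytoskeleton through dynein light chain until it is released, was listed at 2.76 TPM in the control and 5.40 TPM in the GDF1 library. Its change was 0.77, or 1.96-fold as a plain TPM ratio. BCL2L11, which encodes BIM, was listed at 0.98 and 1.41 TPM, a change of 0.28 at a level near the limit of 1 TPM that it passed only in the GDF1 library. BCL2L11 lies wholly within MIR4435-2HG, a long noncoding RNA on the opposite strand listed at 85.7 and 119.4 TPM, with which it shares 10.8% of its exonic bases. BID, which links death receptors to mitochondria after caspase-8 cleavage, was the only BH3-only member with a lower value. BID was listed at 17.0 and 14.4 TPM, a change of -0.22 that was -0.03 relative to the median of all genes. The other 7 genes that overlap members stayed under 1 TPM in both libraries (AC022726.1 and AC022726.2 at BCL2, AL117381.1 at BCL2L1, ADAMTSL4-AS1 at MCL1, GGNBP1 at BAK1, MIR3198-1 at BID and AC021755.2 at BMF).

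**Figure D2:**
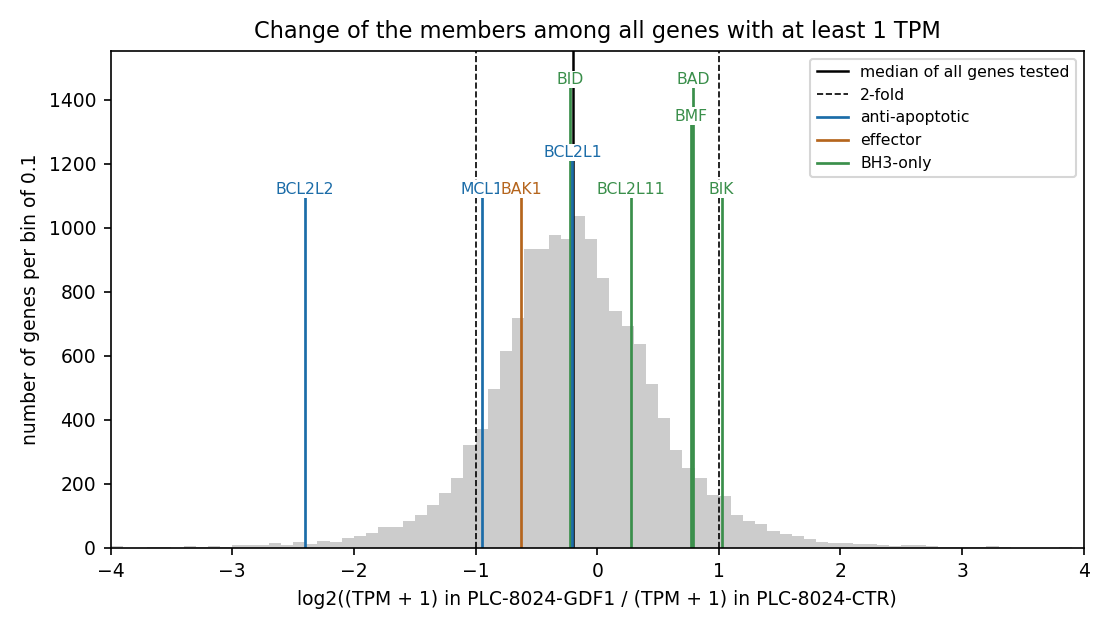
Histogram of the log2 change of all 14929 expressed genes (those beyond 4 in either direction are not drawn), with a coloured line for each of the 9 members that reached 1 TPM. BCL2L2 lies at -2.41 and BIK at 1.02, outside the dashed lines at 2-fold, while BCL2L1 and BID lie at the median of -0.20.

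The members were then summed by role. TPM of the 4 anti-apoptotic members summed to 316.8 in the control and 242.4 in the GDF1 library, a plain log2 ratio of -0.39. BCL2L1 made up 74.4% of this sum in the control and 84.3% in the GDF1 library, MCL1 23.0% and 15.4%, and BCL2L2 2.60% and 0.31%. TPM of the 5 BH3-only members summed to 98.7 and 158.9, a plain log2 ratio of 0.69, and BAD made up 75.5% and 81.6% of it. The 10 members together gave 457.3 and 428.1 TPM.

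A ratio of genes within a library does not depend on how the libraries are scaled to each other. It can still carry the GC trend, which was not subtracted from the sums or ratios. For single genes, subtraction of that trend moved BAD from 0.79 to 0.57, MCL1 from -0.95 to -0.65 and BCL2L1 from -0.20 to -0.17. Over the members, the ratio of BH3-only to anti-apoptotic TPM was 0.31 in the control and 0.66 in the GDF1 library, 2.10-fold higher. Without BAD it was 0.076 and 0.12, 1.58-fold higher. The BH3-only genes PMAIP1, BBC3 and HRK are not members and were not in these sums. BAD over BCL2L1 was 0.32 and 0.63. MCL1 over BCL2L1 was 0.31 and 0.18, as MCL1 differed more than BCL2L1 did. BIK over MCL1 was 0.047 and 0.22, BMF over MCL1 was 0.038 and 0.14, and PMAIP1 over MCL1 was 0.14 in both. Over BCL2L1, BIK was 0.015 and 0.039, BID 0.072 and 0.070, and BAK1 0.18 and 0.13. These are transcript ratios and carry no information on protein, phosphorylation or binding.

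**Figure D3:**
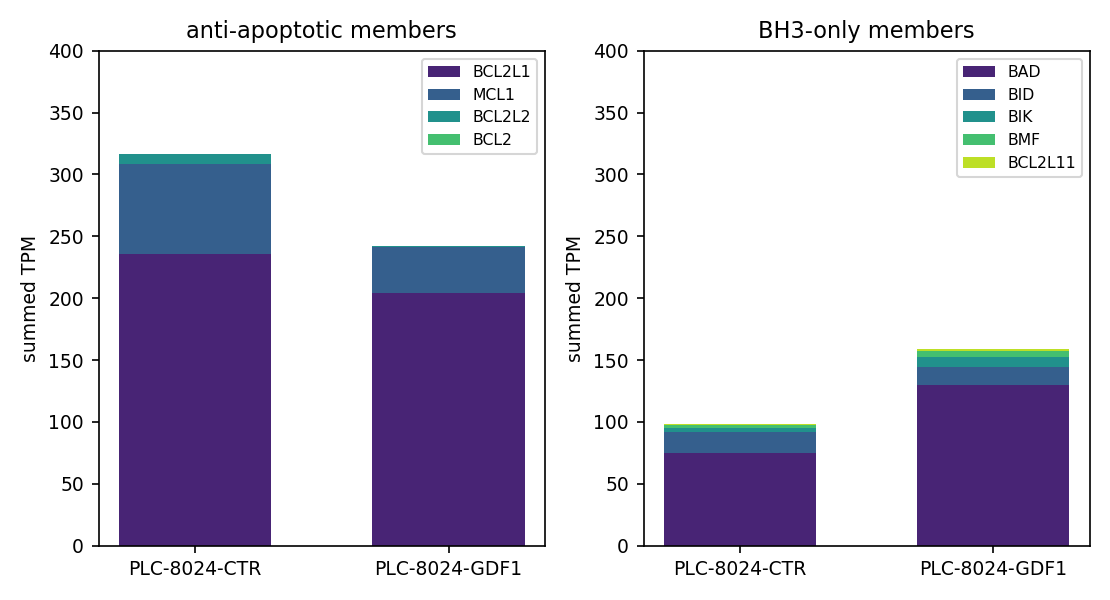
Summed TPM of the 4 anti-apoptotic members (left) and of the 5 BH3-only members (right), stacked by gene, with 1 bar for each library. The anti-apoptotic bar is 316.8 in PLC-8024-CTR and 242.4 in PLC-8024-GDF1, mostly BCL2L1, and the BH3-only bar is 98.7 and 158.9, mostly BAD.

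The remaining BCL2 family genes showed no call. Of 11 on the list, 7 reached 1 TPM, with changes from -0.83 to 0.17 and a median of -0.19. BAX was the most abundant of them. PMAIP1, which encodes NOXA, a BH3-only ligand of MCL-1, was listed at 10.1 and 5.25 TPM, and BBC3, which encodes PUMA, at 18.3 and 16.0 TPM. PMAIP1, BBC3 and HRK, which are BH3-only genes too, had changes of -0.82, -0.18 and -0.28, beside the median of -0.20 over all genes. BCL2A1, an anti-apoptotic member, stayed under 1 TPM in both libraries.

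The 4 BNIP genes, which encode BCL2-interacting proteins, all had negative changes, as did 63.25% of all genes. Their median was -0.74. BNIP3, a mitophagy receptor, was past 2-fold and was listed at 48.1 TPM in the control and 19.4 TPM in the GDF1 library, a change of -1.27. The other BNIP genes ranged from -0.79 to -0.51.

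Downstream of the mitochondria, none of the 9 genes of the release and apoptosome list was past 2-fold. When the pseudocount was 0.1, or when none was added, 1 of them passed it. This was APAF1, which encodes the scaffold of the apoptosome and was listed at 1.27 and 0.42 TPM, with a change of -0.67 that was -1.59 as a plain log2 ratio. The changes of the list ran from -0.72 for VDAC1, an outer membrane channel, to 0.31 for ENDOG, a mitochondrial nuclease. VDAC3, the most abundant of the list, was listed at 157.9 and 123.1 TPM. Among the 6 caspases analysed, 2 were lower past 2-fold and 1 was higher. CASP9, the initiator caspase of the apoptosome, was listed at 26.8 TPM in the control and 4.42 TPM in the GDF1 library, a change of -2.36. CASP8, the death receptor caspase that cleaves BID, was listed at 7.24 and 2.12 TPM, a change of -1.40. CASP2 was higher, at 0.67 and 2.44 TPM, with a change of 1.04. These 6 caspases together summed to 58.7 and 22.3 TPM.

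Of 7 inhibitor of apoptosis genes, 6 reached 1 TPM and 2 were lower past 2-fold. BIRC5, which encodes survivin and is expressed in dividing cells, was listed at 16.5 and 7.39 TPM, a change of -1.06, and BIRC6 at 5.10 and 1.14 TPM, a change of -1.51. None of the 8 expressed death receptor genes was past 2-fold, and their changes ran from -0.80 to 0.73. The highest level and the highest change among them belonged to the receptor gene TNFRSF1A, listed at 99.8 and 166.2 TPM, while FAS and FASLG were listed at 0.0001 TPM in both libraries. A further list held 13 genes that bind members or control their turnover or transcription. Of these, only FOXO3, a transcription factor known to induce BCL2L11, was past 2-fold. It was lower, at 2.46 and 0.55 TPM with a change of -1.16. DYNLL1, a dynein light chain that binds BIM, was the most abundant at 269.2 and 233.0 TPM.

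Of the 60 genes on these 7 lists, 53 reached 1 TPM. With 1 higher and 6 lower, 13.2% of them were past 2-fold, beside 14.4% of all genes, and their median change was -0.50 beside -0.20. Of the 7 past 2-fold, BIRC5 came within 2-fold with TPM rescaled to a median change of 0 (-0.85), with equal upper quartiles (-0.90) and with the GC trend subtracted (-0.90), and FOXO3 with the GC trend subtracted (-0.95). CASP2 and FOXO3 did not reach 5 TPM in either library, and each reached 1 TPM only in the library with its higher value. Overlaps of the listed genes with their neighbours were not examined.

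**Figure D4:**
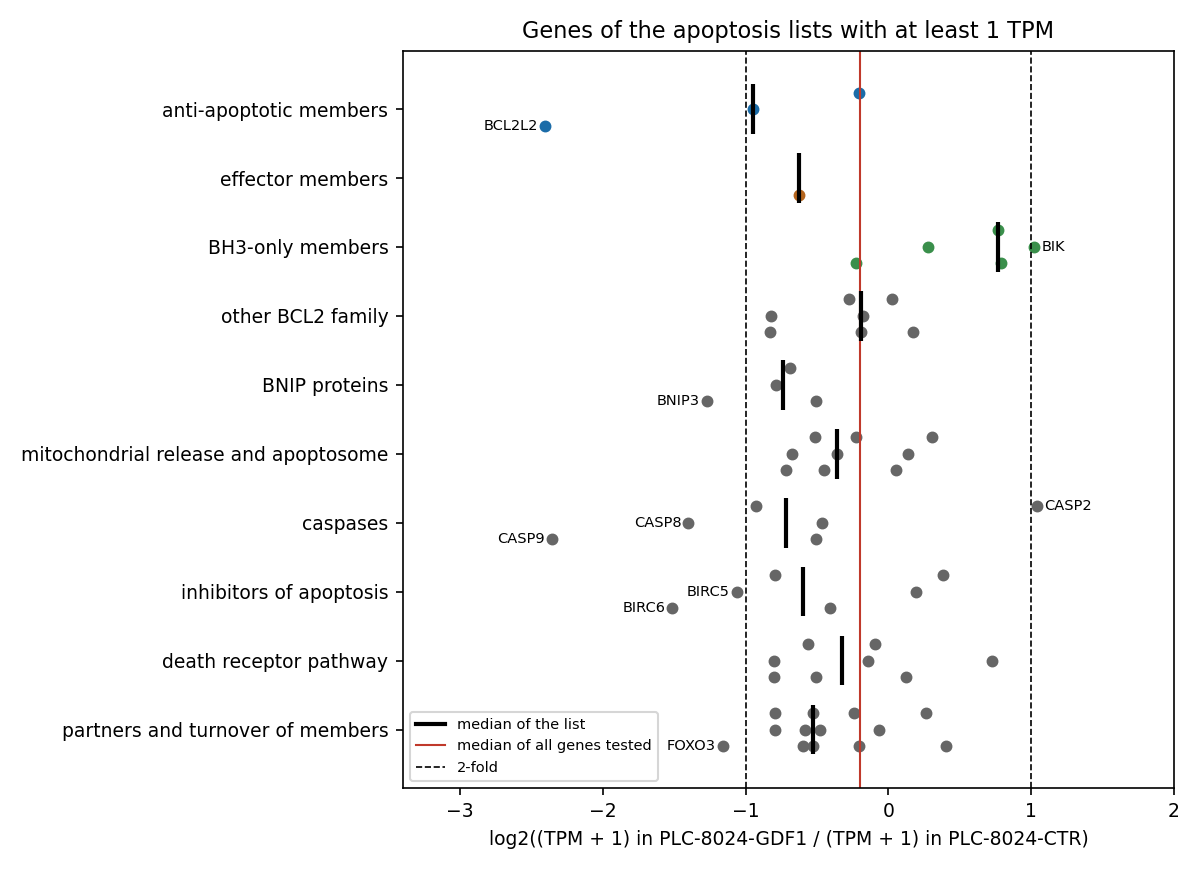
Log2 change of each expressed gene, by list, 1 point per gene, with the list median in black, the median of all genes (-0.20) in red and 2-fold as dashed lines; genes past 2-fold are named. BIK and CASP2 lie to the right of 2-fold, and BCL2L2, BNIP3, 2 caspases, BIRC5, BIRC6 and FOXO3 to the left.

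Besides the single library per condition, the limits of these values lie in scaling, in the GC trend and in reads shared between genes. With the GC trend subtracted, BAD was at 0.57 and MCL1 at -0.65. With TPM of the GDF1 library multiplied by 1.18, which brings the median change of all genes to 0, BAD passed 2-fold (1.03) and BCL2L1 turned from -0.20 to 0.03. BIK stayed above 1 and MCL1 and BAK1 stayed below 0 under all 8 alternatives tried for each. For BIK, however, none of these settings could have lowered the value. The filters and added overlaps left it at 1.02, and the smaller pseudocount, the plain ratio and the rescalings could only raise it. Subtraction of the GC trend gave 1.11, as the median change in its GC group was below 0 (-0.13). The call of BIK was thus not put to a real check. The filters also left MCL1 and BAK1 unchanged, and the smaller pseudocount and the plain ratio could not change their sign. Added overlaps left BAK1 unchanged too.

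**Figure D5:**
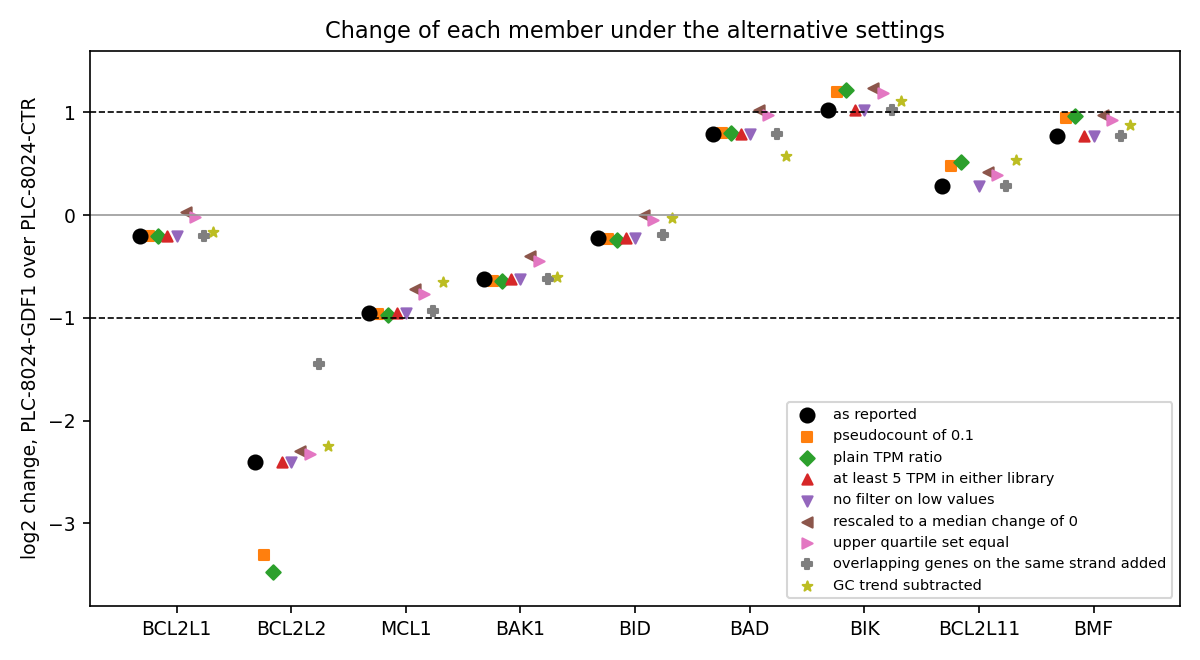
Log2 change of the 9 members that reached 1 TPM as reported (black) and under 8 other settings (7 for BCL2L11, which did not reach 5 TPM), with dashed lines at 2-fold. BIK stays above the upper line, from 1.02 to 1.23, BAD reaches it under 1 setting, BCL2L1 and BID lie near 0 and BCL2L2 moves the most.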

How the data were processed

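RNA-seq was performed by the authors on 1 library of PLC-8024-CTR and 1 library of PLC-8024-GDF1 cells, using poly(A) selection and paired-end sequencing. Per the submitters' processing notes and the methods, reads were filtered with Trimmomatic 0.36 and aligned to hg19 with HISAT2 2.1.0, and the deposited TPM values were computed by the authors with StringTie 1.3.3b. No read counts were used here, so the depth is unknown and no counting error is given. A value of 0.0001 TPM stood in place of 0.

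Log2 ratios were computed with a pseudocount of 1. Expressed genes, those with 1 TPM or more in at least 1 library, formed the background, and a change past 2-fold was called. Members were matched by symbol, and positions, exons and sequences came from GENCODE release 44 on GRCh37, which held 55726 of the 58174 identifiers. GC content was that of the longest transcript. The members and gene lists were chosen with earlier results of these data known, and 1 gene of the lists is not reported here. The text names all members, the genes overlapping them, copies by symbol, GDF1 and CERS1, and from the 7 pathway lists the genes past 2-fold and the most abundant gene of each. VDAC1, ENDOG, APAF1, BBC3, PMAIP1, HRK, BCL2A1, FAS, FASLG, the cell type markers and the pairs of genes set in ratio were chosen in addition after their values were seen. Python 3.11.15 was used with pandas 2.3.3, statsmodels 0.14.6 for the GC trend, numpy 2.4.6 and matplotlib 3.10.9. The change and the call were tested on simulated data with planted changes far past 2-fold, so calls near the limit were not tested.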

Additional observations from a re-analysis of the deposited data

How the results depend on the processing

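No paired analysis was possible because there was only 1 library per condition, and for the same reason no library could be left out. The number of members past 2-fold was 3 with TPM rescaled to a median change of 0 and 2 under the other 8 alternatives. All genes past 2-fold split into 720 higher and 1434 lower at first, and into 1102 and 974 with that rescaling, 1006 and 1050 with the upper quartiles set equal and 921 and 886 with the GC trend subtracted. The median change of the 10 members was -0.10 at first and reversed to 0.016 with the rescaling and to 0.13 with the GC trend subtracted (lowess, span 0.3). Both settings centre all genes near 0, and rescaling likewise turned BCL2L1 to 0.031. The change of BCL2L2 ranged from -3.47 with the plain TPM ratio to -1.45 with the readthrough gene added. With PABPN1 added as well it was 0.025, for a sum that was mostly PABPN1. The ratio of BH3-only to anti-apoptotic TPM had a log2 change of 1.07, and 0.66 without BAD. It was not computed with the GC trend subtracted. All genes past 2-fold numbered 2154 at first, 3666 with the plain TPM ratio and 3482 with a pseudocount of 0.1. Genes past 2-fold on the 7 pathway lists numbered 7 at first, 5 with at least 5 TPM or with the GC trend subtracted, 6 with the rescaling or the upper quartiles set equal, and 9 with a pseudocount of 0.1 or the plain TPM ratio. Adding PABPN1 and leaving out BAD were chosen with the values in view, as was the plain ratio with at least 5 TPM for the count of members.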
